A study of Raphanus sativus with 9 samples.

Results

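A set of 84 radish genes was higher during a long cold treatment and remained at a similar level after the plants had been returned to warmth. The genes were chosen by their measured values among 64657 listed genes, so the levels that define the set are a description and not a test. For each gene the mean of CPM (counts scaled to a common total of gene counts per library), with 0.1 added, was taken in plants before vernalization (BV, called NV in the sample labels), at the end of the cold (V) and after the return to warmth (AV). A gene was taken when V was at least 4 times BV, AV was at least 4 times BV, V was at least 5 CPM, and AV over V lay above 0.5 and below 2.

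All libraries came from *Raphanus sativus* cv. Taebaek, a single cultivar, with leaf and root material together in each library. The BV plants were 4 weeks old and had grown in a greenhouse with 0 days of cold. The V plants were 8 weeks old and had spent the last 28 days in a cold room under a short light period. The AV plants were 10 weeks old and had the same 28 days of cold followed by 14 days in the warm greenhouse. Age differed between all groups, and BV plants had not been in the cold room with its short light period. Cold, light period and age therefore cannot be told apart in any comparison here. The study's methods give no light period for the greenhouse. The sources differ on details, since the name given to the V group in the series' design text carries a number other than the 28 days stated beside it, and the extraction protocol names whole seedlings where the tissue label names leaf and roots. A shift in the share of leaf and root, or of any cell type, cannot be told apart from a change of RNA per cell.

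Vernalization is the promotion of flowering by prolonged cold, and in *Arabidopsis* it is known for a change in the expression of the floral repressor gene FLC that outlasts the cold. Many other cold-responsive genes, such as those of cold acclimation, return towards their former level when warmth returns. The question put to the 84 genes was therefore how evenly they held the level reached in the cold, gene by gene and library by library. In *Brassicaceae*, indolic and aliphatic glucosinolates are sulfur-rich defence compounds, and the genes that make, modify and break them down were the only genes of the series with names.

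The series holds 3 replicates per group, but AV-3 and AV-2 had identical counts for 98.7% of 27930 genes whose sum over both libraries reached 40, and any other pair of libraries matched in at most 0.899%. AV-3 was therefore left out and 8 of 9 libraries were compared, with n = 3 for BV, n = 3 for V and n = 2 for AV. Gene counts per library lay between 21119531 and 27606212, so that 3 counts corresponded to 0.109 to 0.142 CPM. Gene identifiers carried no name or function beyond the study's table of glucosinolate genes, which holds 94 identifiers under 93 names because *RsTGG2a* stands beside 2 of them. None of these 94 was among the 84. The members are therefore given by identifier, and the leaf and root make-up of the libraries was not checked against markers.

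Of all listed genes, 405 were at least 4-fold higher in V than in BV and at 5 CPM or above in V. The 84 genes that held this level made up 20.7% of them. Most of the others, 259 genes or 64.0%, were at or below 0.5 of their V level in AV. A further 51 genes (12.6%) stayed within the limits for AV over V but lay below 4 times BV in AV, and 11 genes (2.72%) were at 2 times V or above. The held genes and the genes that dropped had close medians for the rise in the cold, and the difference was not tested. The median ratio of V to BV was 5.71 in the held genes (highest 26.4) and 5.79 in the 259 (highest 86.8), and the median V level was 18.6 CPM and 17.5 CPM. The 51 genes had a lower median ratio of 4.59, which lies close to the limit of 4 that they had to pass. Their ratio was also capped from above (highest 7.22), since AV lay above 0.5 of V and below 4 times BV. The lower median thus follows from how this class was defined.

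**Figure D1:**
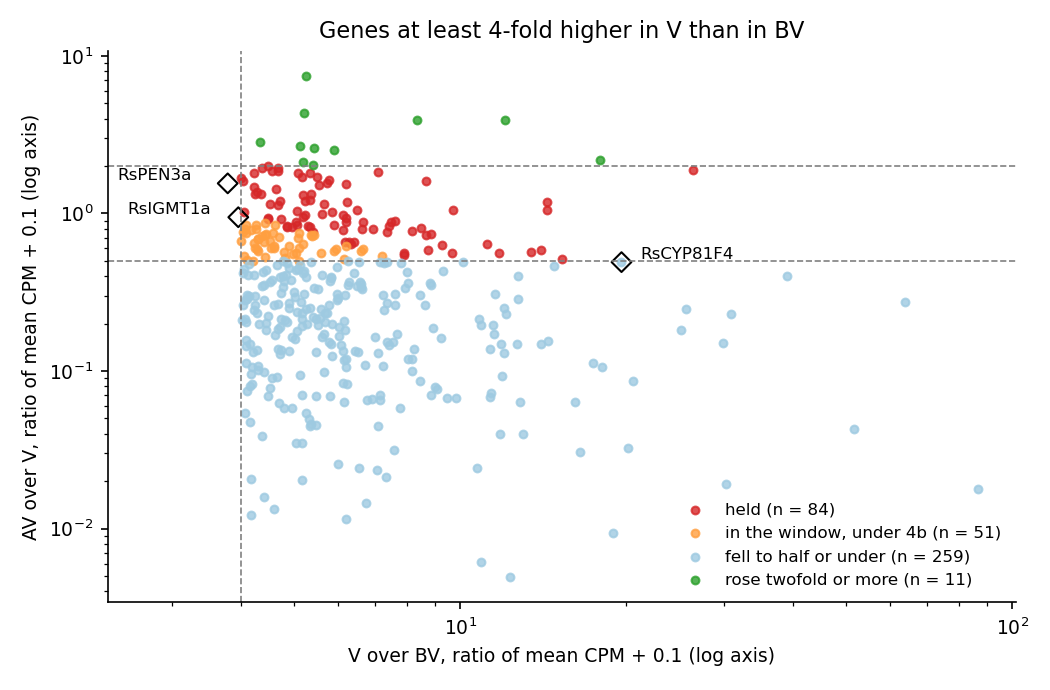
Each filled point is 1 of the 405 genes at least 4-fold higher in V than in BV and at 5 CPM or above in V. The x axis gives the ratio of V to BV and the y axis that of AV to V, both on log axes. Open diamonds mark *RsCYP81F4*, *RsPEN3a* and *RsIGMT1a*. Of these, *RsPEN3a* and *RsIGMT1a* lie below 4-fold and are not among the 405. The 84 held genes lie between the limits of 0.5 and 2 on the y axis, as do the 51 genes below 4 times BV in AV. Most of the cloud (259 genes) lies at or below 0.5, and on the x axis the held genes end at 26.4 while the dropped genes reach 86.8.

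The 84 genes were mostly of low to moderate abundance. Their mean level in BV ran from 0.171 to 335 CPM with a median of 3.08 CPM, and 59 of the 84 were below 5 CPM there. In V the range was 5.14 to 1816 CPM with a median of 18.6 CPM. In AV it was 2.88 to 1378 CPM with a median of 18.3 CPM. The medians of V and AV thus nearly coincided, although single genes moved in both directions between them. In V, 22 of the genes were between 5 and 10 CPM, 22 between 10 and 20 CPM, 27 between 20 and 50 CPM, 10 between 50 and 100 CPM and 3 at 100 CPM or more.

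The ratio of V to BV ran from 4.02 to 26.4 (median 5.71), and the ratio of AV to BV from 4.00 to 49.7 (median 6.21). Most genes were close to the lower limit, since 17 reached 8-fold in V, 20 reached 8-fold in AV and 6 did so in both. The same picture was found in the sum over the 84 genes. Summed levels were 805, 697.9 and 726.8 CPM in the 3 BV libraries. They were 4482, 3741 and 4426 CPM in the 3 V libraries and 4218 and 4065 CPM in the 2 AV libraries. Every V and AV library was above every BV library, and the AV libraries lay inside the range of the V libraries. The mean sums were 743 ± 55.4 CPM in BV (SD, n = 3), 4216 ± 413 CPM in V (SD, n = 3) and 4141 ± 108 CPM in AV (SD, n = 2), or 5.67 and 5.57 times BV. A single gene, RSG25517, gave 43.1% of the V sum. Without it, a view added after the data had been seen, V was 5.89 and AV 6.78 times BV. The sums were then 2425, 2298 and 2479 CPM in V and 2744 and 2783 CPM in AV. Both AV libraries thus lay above every V library once this gene was left out.

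**Figure D2:**
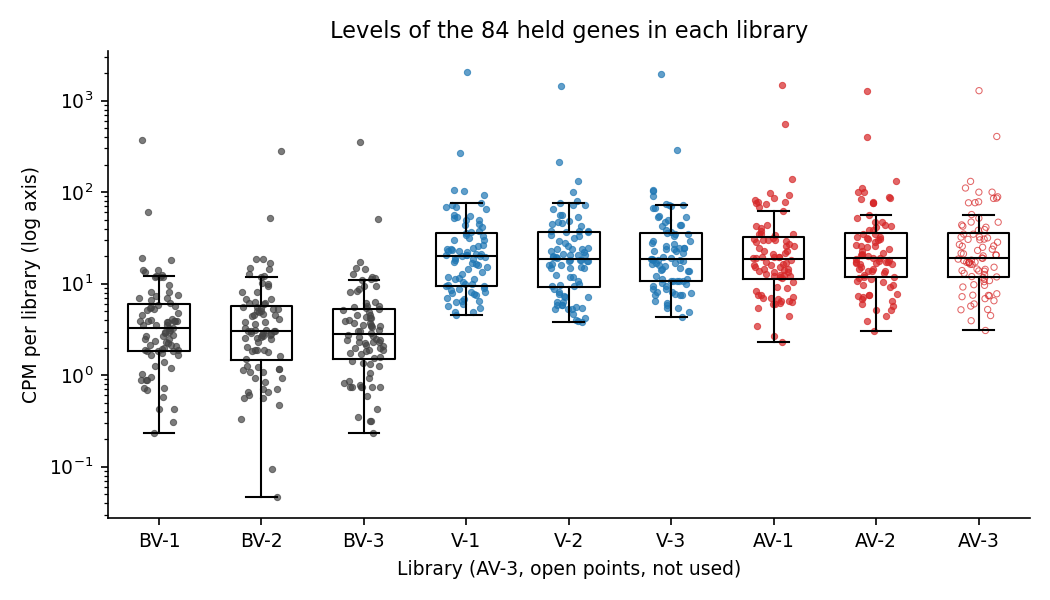
Points give the CPM of the 84 genes in each library on a log axis and boxes their quartiles and median, with AV-3 drawn open because it was not used. The medians lie between 2.81 and 3.31 CPM in the BV libraries and between 18.4 and 19.9 CPM in the 5 V and AV libraries that were used.

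The separation from BV was seen in every library used. In all 84 genes the lowest V library was above the highest BV library, a separation found in 26.2% of the 32043 genes that passed a filter on low counts. In all 84 genes both AV libraries were also above the highest BV library, against 32.6% of those genes. Since the rule used these levels, both counts describe the set only. All 84 genes passed the filter on low counts. The lowest V library was at least 2 times the highest BV library in 82 genes and at least 3 times in 78. For AV the same counts were 84 and 79. The limit of 4 times BV was met in each of the 3 V libraries by 69 genes, in both AV libraries by 71 and in all 5 libraries by 59. The remaining genes met the rule on their means and not in every library. The counts at 2, 3 and 4 times BV describe the set only, since the rule asked for 4 times BV on the means. Their shares over all tested genes were not computed.

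In the fit over all tested genes with the edgeR quasi-likelihood test (Benjamini-Hochberg adjusted p under 0.05 and log2 fold change of at least 1), all 84 genes were called higher in V than in BV, against 10.2% of tested genes. The log2 fold changes ran from 2.02 to 5.23 with a median of 2.51. All 84 were also called higher in AV than in BV, against 8.92% of tested genes, with log2 fold changes from 1.94 to 6.10 and a median of 2.58. Both calls together were made in 3.65% of tested genes. Nothing is read from these counts, because the rule selected on the same contrasts and because both comparisons share the BV libraries. In V the spread between replicates was close to that of other genes. The median coefficient of variation of the 84 genes was 18.3% in BV and 10.9% in V, against 15.9% and 12.0% in the other 20330 tested genes at 5 CPM or more in V. The BV values may compare genes of unlike abundance, since the 84 were chosen to be lower in BV and the others only by V level. The spread in AV was not compared.

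The 3 genes with the highest V level were RSG25517, RSG28099 and RSG20528. V and AV libraries overlapped in RSG25517 and RSG20528 but not in RSG28099. RSG25517 was at 374, 284 and 349 CPM in BV, at 2057, 1443 and 1946 CPM in V and at 1475 and 1282 CPM in AV. It was by far the most abundant of the set in every library, and its AV libraries overlapped the lower part of V. Its V mean was 5.41 times BV and its AV mean 0.759 of V, which left it at 4.11 times BV, near the limit of 4. RSG28099 had 60.8, 52.5 and 50.7 CPM in BV, 265, 212 and 290 CPM in V and 554 and 405 CPM in AV. Here both AV libraries were above all V libraries, with AV at 1.87 times V and 8.75 times BV. RSG20528 had 18.1, 14.8 and 12.7 CPM in BV, 103, 132 and 105 CPM in V and 77.5 and 111 CPM in AV. Its AV libraries lay on either side of the lowest V library, and AV was 0.830 of V.

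The 3 largest ratios of V to BV belonged to RSG03483, RSG26637 and RSG17704. RSG03483 was at 0.231, 0.0471 and 0.236 CPM in BV, from 6, 1 and 6 counts. It reached 8.08, 4.26 and 8.82 CPM in V and 12.3 and 14.4 CPM in AV, so that AV was above V in every library. Its ratios of 26.4 in V and 49.7 in AV rest on these few BV counts, and with 1 CPM added in place of 0.1 they were 6.88 and 12.3. RSG26637 went from 2.92, 2.92 and 2.08 CPM in BV to 43.5, 38.0 and 44.1 CPM in V, a ratio of 15.3, and was at 19.4 and 23.7 CPM in AV. Its AV libraries were far below V and still far above BV. RSG17704 had 0.730, 0.943 and 0.432 CPM in BV, 8.66, 14.8 and 10.8 CPM in V and 12.3 and 11.8 CPM in AV. Unlike RSG26637 it kept its level, with AV inside the V range and ratios to BV of 14.4 in V and 15.2 in AV. These were 7.302 and 7.68 with 1 CPM added.

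**Figure D3:**
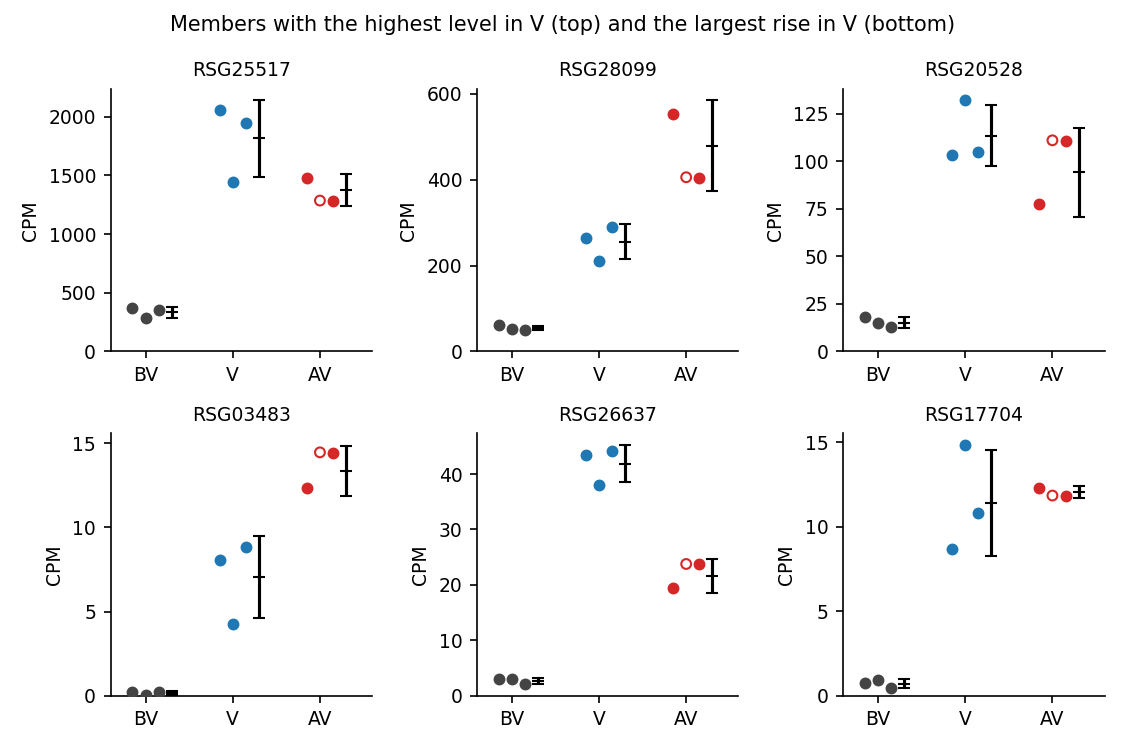
CPM (linear axis from 0) of the 3 genes with the highest V level (top) and the 3 with the largest V over BV (bottom) in BV, V and AV, with a filled dot for each library used, an open dot for AV-3 and a bar for the mean ± SD. RSG28099 and RSG03483 have AV above V, RSG26637 has AV below V, and in RSG25517, RSG20528 and RSG17704 the V and AV libraries overlap.

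The ratio of AV to V ran from 0.516 to 1.997 with a median of 0.977, values bounded by the rule at 0.5 and 2. The ratio lay between 0.8 and 1.25 in 37 of the 84 genes, below 0.67 in 14 and above 1.5 in 19. AV was below V in 44 genes and above V in 40. In the edgeR quasi-likelihood test (Benjamini-Hochberg adjusted p under 0.05, no minimum fold change), 19 genes were called higher in AV than in V, which is 22.6% of the set against 14.7% of tested genes. Lower calls were made for 13 genes, or 15.5% against 16.9% of tested genes. These counts describe the set only, since the rule bounded AV over V and set limits that other tested genes need not meet. For the other 52 genes no change was called, which does not show that V and AV were alike. With 2 AV libraries these 32 calls depended on single libraries. They numbered 18 without V-1, 20 without V-3, 8 without AV-1 and 13 without AV-2.

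By library, both AV values were above all V values in 26 genes, 31.0% of the set against 32.1% of tested genes, and below them in 25, 29.8% against 27.4%, while 33 genes overlapped. The rule bounded these values too, so the counts describe the set only. The 26 genes with AV above V had a median ratio of V to BV of 5.13 and of AV to BV of 8.65. In the 25 genes with AV below V the medians were 7.91 and 5.27. In the 33 overlapping genes the medians were 5.62 and 5.64. In the classes with AV above V and AV below V, the order of both medians is set by how the class was defined. AV-1 and AV-2 were never 2-fold or more apart in the 84 genes, and AV-1 was above AV-2 in 30 of them. Taken one at a time, AV-1 lay within the limits for AV over V in 74 genes, AV-2 in 80 and both in 70.

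**Figure D4:**
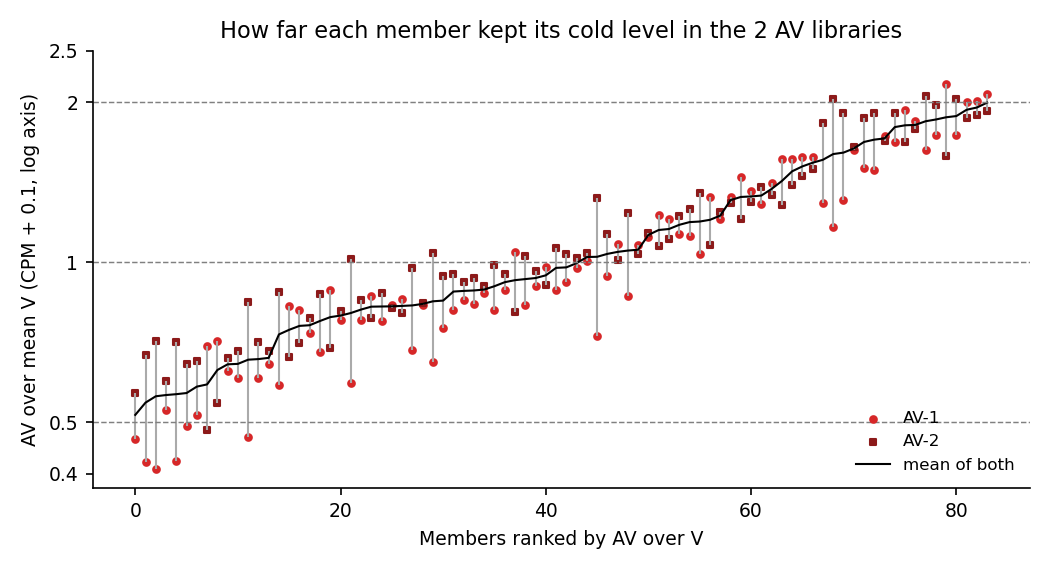
AV over the V mean for the 84 genes ranked by the mean ratio, with AV-1 and AV-2 as separate points joined by a grey line on a log axis, their mean as the black line and dashed lines at 0.5, 1 and 2. The ranked means pass through 1 near the middle of the set, and single libraries cross the limits at both ends.

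The genes at the ends and in the middle of this order show what the limits hold together. After RSG26637, the lowest ratio of AV to V was that of RSG40399 (0.544), with 4.77, 4.71 and 3.34 CPM in BV, 35.9, 31.9 and 35.8 CPM in V and 14.5 and 23.02 CPM in AV. All V libraries were above both AV libraries, and AV-1 was clearly below AV-2. The highest ratio was that of RSG07604 (1.997), with 1.77, 1.84 and 2.40 CPM in BV, 8.19, 9.57 and 10.3 CPM in V and 19.5 and 18.0 CPM in AV. RSG05322, at 1.96, had 13.4, 18.7 and 14.97 CPM in BV, 75.8, 56.7 and 74.4 CPM in V and 139 and 131 CPM in AV. Both stepped up a second time after the cold, and neither had any overlap between the 3 groups. Nearest to 1 was RSG00353 (0.996), at 3.96, 6.27 and 3.54 CPM in BV, 23.7, 29.5 and 25.5 CPM in V and 25.5 and 26.7 CPM in AV. RSG07722 (0.978) followed at 1.19, 1.27 and 0.747 CPM in BV, 7.93, 5.78 and 7.51 CPM in V and 6.48 and 7.35 CPM in AV. In both, the AV libraries fell within the V range.

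The limits of the rule cut through a continuous spread of values. The ratio of V to BV just inside was 4.015 (RSG28223) and just outside 3.98 (RSG00535), and for AV to BV the values were 4.004 (RSG40054) and 3.954 (RSG13583). For the V level they were 5.239 CPM (RSG50257) and 4.589 CPM (RSG56210), both with 0.1 added. At the lower limit for AV over V, RSG26637 was inside at 0.516 and RSG10180 (*RsCYP81F4*) outside at 0.491. At the upper limit RSG07604 was inside at 1.997 and RSG15279 outside at 2.028. Genes that failed only 1 condition were 45 for V over BV, 51 for AV over BV, 65 for the V level, 11 for the lower and 11 for the upper limit of AV over V. The size of the set moved with these limits, and 48 of the 84 genes stayed in every set made with 1 library left out.

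Few of the 84 genes had consecutive identifiers. The only such pair was RSG43530 and RSG43531, 2.38% of the set, and 0.357% of the 31959 other tested genes had an identifier next to that of a member. Whether consecutive numbers mean neighbouring genes was not stated in the sources used here. RSG43530 had 8.03, 8.11 and 8.41 CPM in BV, 38.0, 48.3 and 38.6 CPM in V and 34.8 and 38.9 CPM in AV. RSG43531 had 2.46, 1.89 and 2.59 CPM in BV, 15.1, 15.2 and 15.9 CPM in V and 7.18 and 13.0 CPM in AV. The V means of the pair were 5.04 and 6.42 times BV and the AV means 4.46 and 4.21 times BV, so that AV was 0.885 and 0.656 of V. One more member, RSG05839, singled out after its values were seen, has the number before RSG05840, the glucosinolate gene *RsPEN3c*. RSG05839 had 14.0, 14.6 and 11.8 CPM in BV, 69.3, 75.4 and 72.7 CPM in V and 62.7 and 56.8 CPM in AV.

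*RsPEN3c* itself took another course. Its *Arabidopsis* namesake PEN3 is an ABC transporter of the plasma membrane with a part in the export of indole glucosinolate-derived defence compounds. *RsPEN3c* was at 124, 75.5 and 143 CPM in BV, 241, 185 and 211 CPM in V and 349 and 482 CPM in AV, with both AV libraries above V. The log2 fold change was 0.86 ± 0.22 (SE) in V over BV and 1.77 ± 0.24 (SE) in AV over BV, with edgeR adjusted p of 0.00516 and 3.06e-05. For AV over V it was 0.91 ± 0.24 (SE) with an edgeR adjusted p of 0.00768, which became 0.132 without AV-2.

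The 94 named glucosinolate identifiers gave the only view of function, and 87 of them were tested by the edgeR quasi-likelihood test with the same thresholds. In V over BV, 14 rose (16.1%, against 10.2% of all tested genes) and 20 of the 87 fell, where 10.9% of all tested genes fell. In AV over BV, 11 rose (12.6%, against 8.92%) and 42 fell (48.3%, against 13.1%). The median log2 fold change of the 87 was -0.05 in V over BV and -0.91 in AV over BV, while the median of all tested genes was 0.01 and 0.00. Both comparisons share the BV libraries. In all, 5 of the 87 rose in both, which is 5.75% against 3.65% of tested genes. These were *RsMYB122*, *RsCYP81F2a*, *RsCYP81F4*, *RsIGMT1a* and *RsPEN3a*. By step, 3 of the 12 tested genes of indolic secondary modification rose in both comparisons, as did 1 of the 7 indolic transcription factors and 1 of the 15 breakdown genes. None of the 11 genes of indolic core structure formation did so, and none of the 42 tested aliphatic genes. Both counts of 0 depended on the setting. The aliphatic transcription factor gene *RsMYB28b*, with a log2 fold change of 0.98 ± 0.34 (SE) in V over BV and 1.46 ± 0.37 (SE) in AV over BV (edgeR adjusted p of 0.0342 and 0.00581), missed only the minimum fold in V over BV. It was called in both on library totals, with a replicate block and without BV-1, BV-2 or V-3. The indolic core gene *RsCYP79B2c* was called in both with all 9 libraries. Of the 12 genes of indolic secondary modification, 4 rose and 3 fell in V over BV, and 3 rose and 4 fell in AV over BV. Falls were called in 10.9% and 13.1% of all tested genes. In the aliphatic core structure genes, 15 of 19 fell in AV over BV, where 13.1% of all tested genes fell, and 0 rose.

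*RsCYP81F4* came closest to the set. CYP81F4 is known in *Arabidopsis* as the cytochrome P450 that modifies the indole ring of indolic glucosinolates on its nitrogen. *RsCYP81F4* was at 0.615, 0.330 and 0.707 CPM in BV, 13.1, 10.7 and 14.2 CPM in V and 5.79 and 6.53 CPM in AV. Both later groups lay far above BV, and both AV libraries were below all V libraries. It was 19.6 times BV in V and 9.63 times BV in AV and failed the rule only because AV was 0.491 of V. The log2 fold change was 4.45 ± 0.28 (SE) in V over BV and 3.36 ± 0.29 (SE) in AV over BV, with edgeR adjusted p of 1.26e-08 and 4.1e-07. For AV over V it was -1.09 ± 0.25 (SE), with an edgeR adjusted p of 0.00328 and of 0.0503 without AV-1.

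*RsPEN3a* was the other glucosinolate gene that missed by a single condition, with V at 3.79 times BV. It was at 105, 48.7 and 120 CPM in BV, 386, 297 and 356 CPM in V and 408 and 668 CPM in AV. The V and AV libraries were all above BV, and AV-1 and AV-2 stood well apart. The log2 fold change was 1.88 ± 0.28 (SE) in V over BV (edgeR adjusted p of 6.34e-05) and 2.46 ± 0.30 (SE) in AV over BV (edgeR adjusted p of 1.18e-05). For AV over V it was 0.58 ± 0.29 (SE), and the edgeR adjusted p of 0.152 ranged from 0.0156 to 0.736 over the alternatives. *RsPEN3b* was not called in V over BV, with a log2 fold change of 0.12 ± 0.16 (SE) and an edgeR adjusted p of 0.574. It rose in AV over BV by 2.10 ± 0.17 (SE), with an edgeR adjusted p of 2.15e-07.

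*RsIGMT1a* lay just under the limits and kept a like level in V and AV. IGMT enzymes add a methyl group to hydroxylated indolic glucosinolates. *RsIGMT1a* was at 1.69, 3.30 and 3.50 CPM in BV, 10.6, 13.0 and 10.9 CPM in V and 11.3 and 10.5 CPM in AV, with V and AV overlapping. It was 3.96 times BV in V and 3.75 times BV in AV, against the limit of 4 in both. The log2 fold change was 2.00 ± 0.26 (SE) in V over BV and 1.86 ± 0.27 (SE) in AV over BV, with edgeR adjusted p of 1.78e-05 and 7.55e-05. *RsIGMT2*, a related methyltransferase gene with the next identifier, had 3.54, 5.28 and 4.17 CPM in BV, 10.5, 14.5 and 13.5 CPM in V and 7.87 and 5.17 CPM in AV. It rose in V over BV by a log2 fold change of 1.54 ± 0.24 (SE) with an edgeR adjusted p of 0.0001. Its AV over BV value of 0.52 ± 0.26 (SE) did not pass (edgeR adjusted p of 0.14).

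The remaining genes that rose in both comparisons did so by less. MYB122 is a transcription factor of indolic glucosinolate synthesis in *Arabidopsis*. *RsMYB122* was at 2.69, 1.84 and 2.48 CPM in BV, 5.62, 5.78 and 6.12 CPM in V and 6.56 and 5.60 CPM in AV. Its ratio of AV to V was 1.04, and V and AV were 2.44 and 2.54 times BV. *RsCYP81F2a*, whose *Arabidopsis* namesake hydroxylates the indole ring, was at 0.346, 0.518 and 0.511 CPM in BV, 0.833, 1.71 and 0.855 CPM in V and 1.27 and 1.79 CPM in AV. All V and AV libraries of both genes were above BV. The calls for *RsCYP81F2a* rested on few counts and single libraries. Its edgeR adjusted p was 0.0371 in V over BV and 0.0137 in AV over BV, and over the alternatives these reached 0.184 (without V-2) and 0.114 (without AV-2). Calls in V over BV were also lost without BV-1, BV-2 or AV-2, and in AV over BV without BV-1. Other genes of this name did not rise. *RsCYP81F2d* was at 16.8, 16.2 and 20.9 CPM in BV, 8.44, 7.765 and 10.7 CPM in V and 6.33 and 5.13 CPM in AV. It fell in both comparisons, with edgeR adjusted p of 0.00058 and 3e-05. *RsCYP81F2b*, under 1 CPM in every library, also fell in both, and *RsCYP81F2c* was called in neither.

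**Figure D5:**
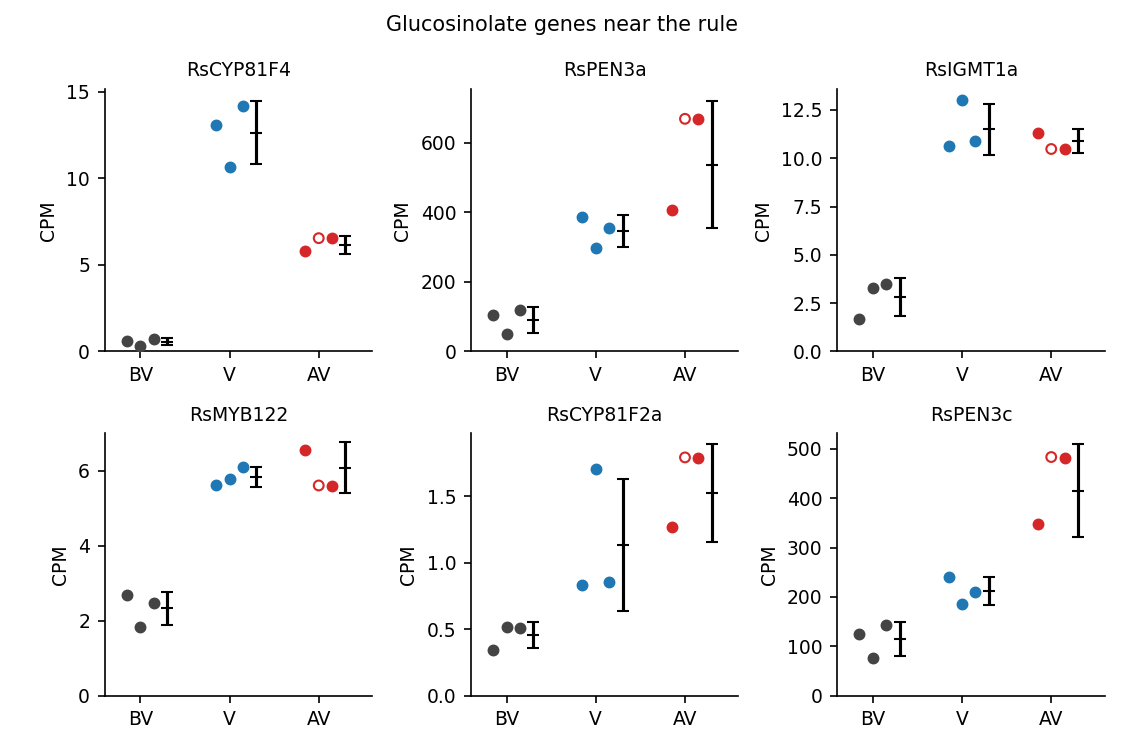
CPM (linear axis from 0) of glucosinolate genes near the rule in BV, V and AV, with a filled dot for each library used, an open dot for AV-3 and a bar for the mean ± SD. *RsIGMT1a* and *RsMYB122* stayed level from V to AV, *RsCYP81F4* was lower in AV, and AV-1 and AV-2 of *RsPEN3a* stood at 408 and 668 CPM.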

How the data were processed

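RNA from leaf and root material was sequenced from stranded mRNA libraries. Per the labels and the study's methods, the authors checked and trimmed reads, aligned them to a radish reference genome with TopHat2 and counted them per gene with HTSeq. The deposited values are raw counts per gene, 1 file per library. Tool versions, the genome build and the strand setting were not given in the sources used here. HTSeq sets aside reads with several alignments, so close homologues may lose counts. The 5 entries that name no gene held 4.27% to 8.89% of listed reads in the 8 libraries used and were left out.

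CPM was computed from library totals. Tests used edgeR 4.0.16 in R 4.3.3 (TMM normalization, filterByExpr, robust quasi-likelihood fit over BV, V and AV together, Benjamini-Hochberg adjustment over 32043 genes, 49.6% of those listed). The procedure was tested on simulated data. AV-3 was left out, since its counts differ from those of AV-2 by less than sampling noise. Replicates are described as biological. The p-values set differences between group means against the spread between these libraries, estimated over BV, V and AV together.

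The members and lists were chosen with earlier results of these data known. Named genes were the 3 with the highest V level, the 3 with the largest V over BV, the 2 each with the lowest, the highest and the most even AV over V, the longest run of consecutive identifiers, the genes at each limit, and glucosinolate genes that missed 1 condition. *RsIGMT1a*, *RsMYB122*, *RsCYP81F2a*, *RsIGMT2*, *RsPEN3c* and RSG05839 were added after their values were seen. The same holds for *RsCYP81F2b*, *RsCYP81F2c*, *RsCYP81F2d*, *RsMYB28b*, *RsCYP79B2c*, *RsIGMT1b*, *RsIGMT1c* and *RsPEN3b*. None of the RSG identifiers matched the RefSeq gene table (0 matches), so no sequence is shown. Alternatives were DESeq2 1.42.0, other scalings, filters, added CPM values, limits, a replicate block and each library left out.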

Additional observations from a re-analysis of the deposited data

Results flagged for a closer look

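A signal of the 84 genes was also present in AV-3, the library left out of every comparison. Their summed level there was 4075 CPM, against 697.9 to 805 CPM in the BV libraries and 4065 CPM in AV-2. AV-3 differed from AV-2 in the count of 1 of the 84 genes, so it is no further replicate of the AV level.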

How the results depend on the processing

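The set of 84 genes held 49 with 1 CPM added, 187 at a fold of 3, 21 at a fold of 6 and 51 with AV over V between 0.67 and 1.5. It held 71 under TMM scaling (70 shared with the 84), 70 under DESeq2 size factors (69 shared) and 74 to 93 with 1 library left out. Only 48 were in every one of the latter sets, a count added after seeing the data. All 84 were called higher in V and in AV over BV under every alternative fit. Nothing is read from this, since the rule asked for 4 times BV on the means of the same libraries. The 32 calls in AV over V ranged from 8 to 33 with 1 library left out and were 1 with a minimum log2 fold change of 1. The 5 glucosinolate genes that rose in both comparisons were 8 with no minimum fold, 6 on library totals (the aliphatic *RsMYB28b* added) and 4 to 6 with 1 library left out. The AV over V log2 fold change of *RsMYB122*, 0.01, was -0.0435 with all 9 libraries and between -0.14 and 0.15 with 1 left out, including -0.03 without V-1. The cause of these shifts was not tested.

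Whether replicate numbers pair the samples was not settled. The correlation of deviations in same-numbered BV and V libraries was 0.05, 0.23 and 0.11. In differently numbered pairs it lay between -0.192 and 0.146. These values cannot decide it, because each deviation is taken from a mean of only 3 libraries, and AV was not examined. With a replicate block, 30 members were called in AV over V and 6 glucosinolate genes rose in both comparisons. With 2 AV libraries, changes between V and AV smaller than the spread between libraries could not be resolved, and ratios of genes under 1 CPM in BV rest on few counts.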
